A study of Mus musculus with 2 samples.

Results

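Cycling cells of the Hic1 lineage were taken from 2 single-cell RNA-seq libraries of adult mouse skeletal muscle by the mRNAs of 6 genes used in cell division. A barcode counted as a cycling cell when it held at least 1500 UMIs (unique molecular identifiers, each standing for 1 captured mRNA), at most 10% mitochondrial UMIs, and at least 1 UMI of at least 3 of Mki67, Top2a, Birc5, Ube2c, Cenpf and Cdk1. Of the 14654 cells within the depth and mitochondrial limits, 132 met this rule. They were 111 of 6087 cells in the library labelled at embryonic day (E)10 and 21 of 8567 cells in the library labelled in the adult. Because the rule reads expression, the levels of the 6 genes are given as a description, and the other genes of the cell cycle are not independent of them.

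The mice of both groups were C57BL/6J and Hic1CreERT2/CreERT2;Rosa26LSLtdTomato/tdTomato, so that both Hic1 alleles carried a tamoxifen (TAM)-inducible Cre recombinase and both Rosa26 alleles a tdTomato reporter that Cre switches on. For the E10-P56 library, pregnant dams received 7.5 mg of TAM by gavage at E10 and muscle was collected at postnatal day (P)56. For the adult pulse library, mice were given daily doses of 2.5 mg of TAM at 8 weeks of age. The labels give P56 for its collection too, while the methods describe a later day, so the interval between TAM and collection is uncertain. Tibialis anterior muscles were pooled, haematopoietic and endothelial cells were excluded by surface markers, and tdTomato+ cells were sorted and captured with 10x Chromium 3' chemistry. Only cells that expressed Hic1 around the time of TAM, and their progeny, carry the reporter in this model. There was 1 library per group, and TAM age, library and software version differed together, so their effects cannot be told apart. No spread between animals can be given, no test was made, and every interval below is an exact 95% interval that covers counting error only.

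A dividing cell copies its DNA in S phase, checks and prepares it in G2 and separates the copies in mitosis (M). Cyclins drive these steps by activating cyclin-dependent kinases (CDKs), and CDK inhibitors restrain them. E2F factors switch on genes of DNA replication at the start of S phase. A complex of MuvB proteins with B-Myb and then FoxM1 switches on genes of mitosis later, through a promoter element called the cell cycle genes homology region (CHR), often beside CCAAT boxes bound by NF-Y. In resting adult muscle the mesenchymal cells that carry Dpt and Pdgfra, the fibro-adipogenic progenitors or fibroblasts, divide rarely and increase after injury. Tenocytes build tendon and myotendinous matrix, pericytes and vascular smooth muscle cells (VSMCs) surround vessels, and the study names a smooth muscle cell progenitor (SMCP) among these mural cells.

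Of the rule genes, Mki67 codes for a protein that coats mitotic chromosomes, Top2a for the topoisomerase that untangles DNA, and Birc5 for survivin of the chromosomal passenger complex. Ube2c codes for the ubiquitin-conjugating enzyme of the anaphase-promoting complex (APC/C), Cenpf for a kinetochore protein and Cdk1 for the kinase of mitosis. In GRCm38 they lie at chr7:135689784-135716361 (Mki67, minus strand), chr11:98992943-99024189 (Top2a, minus), chr11:117849251-117855743 (Birc5, plus), chr2:164769898-164778822 (Ube2c, plus), chr1:189640606-189688086 (Cenpf, minus) and chr10:69335146-69352938 (Cdk1, minus). The 250 bases before the start of Mki67, Top2a and Birc5 are shown as examples with and without letter matches to these elements. They come from RefSeq on GRCm38.p6, run 5′ to 3′ on the strand of the gene, and cover chr7:135716380-135716629, chr11:99024190-99024439 and chr11:117848987-117849236. Capitals mark matches on either strand of the gene, and no match in these windows overlaps another. For the CHR the letters TTTGAA were searched, and so were those of its known variant form TTCGAA. The CCAAT box was searched by the letters of its name. For E2F sites TTCCCGC was searched, and as another form of the same site TTGGCGC.
Mki67: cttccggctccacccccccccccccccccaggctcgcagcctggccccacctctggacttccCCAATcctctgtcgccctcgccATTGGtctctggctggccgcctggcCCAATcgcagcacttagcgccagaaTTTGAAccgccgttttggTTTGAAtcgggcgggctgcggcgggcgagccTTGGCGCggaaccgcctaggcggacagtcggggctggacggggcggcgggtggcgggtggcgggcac
Top2a: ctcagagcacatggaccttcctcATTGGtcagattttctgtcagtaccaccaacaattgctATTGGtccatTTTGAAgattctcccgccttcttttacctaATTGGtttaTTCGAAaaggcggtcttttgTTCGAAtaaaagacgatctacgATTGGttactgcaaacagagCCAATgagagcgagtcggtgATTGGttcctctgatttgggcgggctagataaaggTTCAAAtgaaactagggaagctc
Birc5: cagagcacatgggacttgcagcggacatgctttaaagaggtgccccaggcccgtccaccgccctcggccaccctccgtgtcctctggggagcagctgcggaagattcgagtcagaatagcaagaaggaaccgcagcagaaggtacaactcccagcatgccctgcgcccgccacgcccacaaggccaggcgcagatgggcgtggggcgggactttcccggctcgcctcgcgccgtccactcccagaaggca
The Mki67 window held CHR, CCAAT and E2F matches, the Top2a window CHR and CCAAT matches, and the Birc5 window none. Over all 6 rule genes, 4 windows held a CHR match, 5 a CCAAT match and 2 an E2F match. Of the 46 measured genes of the G2/M list, 40 had a window. A CHR match stood in 18 of these (45%) against 19.6% of the windows of all 27025 genes, and a CCAAT match in 30 (75%) against 37.5%. Both stood together in 15 (37.5%) against 7.00%, and an E2F match in 5 (12.5%) against 6.45%. These are letter matches, not measured binding, and a window without a match does not show that the promoter lacks the element.

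In E10-P56 the 111 cycling cells held 268 UMIs per 1000000 UMIs (CPM) of Mki67, 268 of Top2a, 267 of Birc5, 273 of Ube2c, 280 of Cenpf and 170 of Cdk1. In the adult pulse the 21 cycling cells held 1102 CPM of Mki67, 1105 of Top2a, 431 of Birc5, 702 of Ube2c, 1005 of Cenpf and 447 of Cdk1. A UMI of each gene was seen in 68.5% to 92.8% of the cycling cells of E10-P56. There were 424 and 382 pericyte-like cells that did not meet the rule. Their medians were 3103.5 and 3202.5 UMIs, against 32153 and 15173 in the cycling cells. The share of them with a UMI of each gene was at most 1.42% and 0.52%. In the 258 SMCP-like cells of E10-P56 outside the rule (median 8544.5 UMIs), it ran from 0.388% (Birc5) to 8.91% (Cdk1). The adult pulse had 8327, 205, 14, 2, 4, 1 and 14 cells with 0 to 6 of the genes, so that most members held all 6. The same counts in E10-P56 were 5612, 314, 50, 22, 18, 26 and 45, which left 50 cells just outside the limit and 22 just inside. At this edge the cells with 2 genes held 39.7 CPM of Mki67, 17.8 of Top2a and 33.2 of Birc5, and those with 3 genes held 83.0, 21.7 and 103. Ube2c went from 14.6 to 47.4 CPM and Cenpf from 30.8 to 53.3, while Cdk1 was lower inside, at 19.8 against 27.5 CPM. The number of these same genes defines both groups, so their levels only describe the edge. The S and G2/M phase lists without the rule genes went from 516.6 and 746.3 CPM in E10-P56 cells with none of the 6 genes to 1107 and 1128 CPM with 2 of them, and to 2895 and 6330 CPM with all 6. The same lists of the adult pulse stood at 457.6 and 713.4 CPM with none and at 3157 and 14484 CPM with all 6. E10-P56 cells with 3 rule genes held 1047 CPM of the S list and 1999 of the G2/M list, so at the limit the S list was no higher inside than outside.

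**Figure D1:**
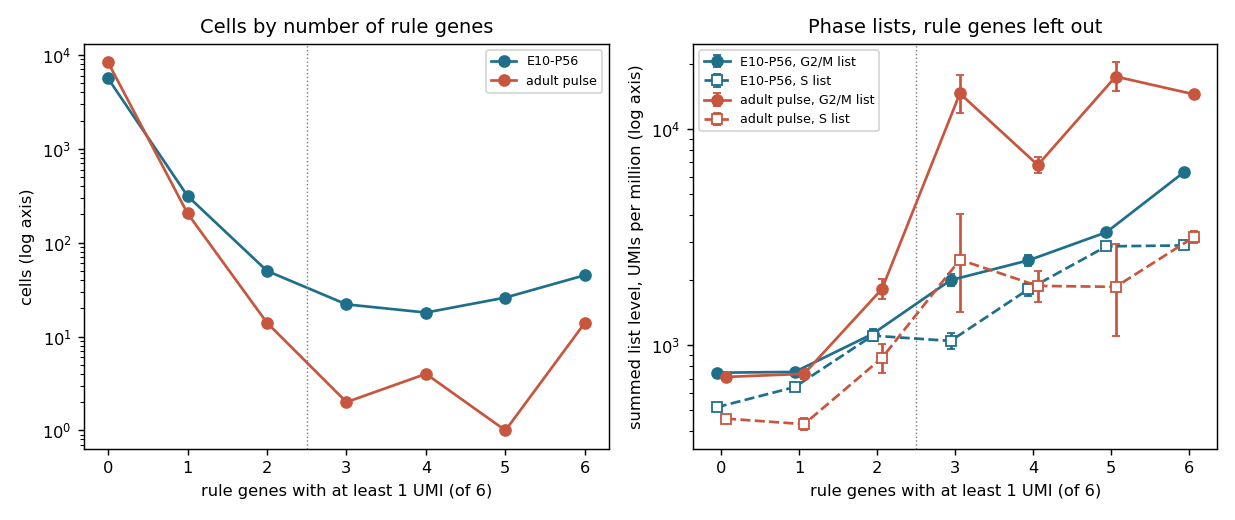
Left, number of kept cells (log axis) by how many of the 6 rule genes had a UMI, for both libraries. Right, summed CPM (log axis) of the S and G2/M lists without the rule genes in the same cells, with Poisson 95% intervals, where the dotted line marks the limit of 3 genes and both lists are highest at 5 or 6 genes in E10-P56.

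The cycling cells were deep. Their median was 32153 UMIs (range 1522 to 123891) and 5375 genes in E10-P56, against 7266 UMIs and 2618.5 genes in cells with none of the 6 mRNAs. After the adult pulse it was 15173 UMIs (1751 to 37340) and 4144 genes against 7289 UMIs and 2474 genes. Mitochondrial shares were close, at medians of 2.27% against 2.58% in E10-P56 and 3.28% against 2.71% in the adult pulse. A deep cell is more likely to show 3 of 6 mRNAs. After each cell was thinned to 1500 UMIs, 28 of 6087 cells (0.460%, 0.306 to 0.664) met the rule in E10-P56 and 14 of 8567 (0.163%, 0.0894 to 0.274) in the adult pulse. The unthinned shares were 1.82% (1.502 to 2.19) and 0.245% (0.152 to 0.374), so the cycling share was higher in E10-P56 at both depths and the gap narrowed with thinning. Doublets were not removed, and 13 of the 111 E10-P56 cycling cells (11.7%) and 0 of the 21 adult pulse ones had a doublet score in the top 5% of their library. Of 15 barcodes listed in both libraries, 11 were kept in both, and none of the cycling cells had its barcode among the kept cells of the other library.

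Most cycling cells were fibroblast-like in E10-P56, and nearly equal numbers were fibroblast-like and tenocyte-like in the adult pulse. Cells with none of the rule genes were clustered in each library without cycle genes, clusters were named from marker lists, and each cycling cell took the most frequent name among its 20 nearest non-cycling cells. In E10-P56, 97 of 111 cycling cells (87.4%, 79.7 to 92.9) were fibroblast-like, while this type made up 72.9% of the kept cells. Of the 28 cells that met the rule at 1500 UMIs per cell, 19 (67.9%) were fibroblast-like and 7 (25%) SMCP-like, so the share of fibroblast-like cells above that of the kept cells was not seen at equal depth. A further 10 were SMCP-like, 2 VSMC-like, 1 tenocyte-like and 1 lay in a cluster without a name. In the adult pulse, 11 of 21 (52.4%, 29.8 to 74.3) were fibroblast-like and 10 (47.6%, 25.7 to 70.2) tenocyte-like, a type that made up 6.58% of the kept cells. At 1500 UMIs per cell 9 of 14 were fibroblast-like and 5 tenocyte-like. All 20 neighbours shared 1 name for 82 of 111 and 21 of 21 cycling cells. No pericyte-like cell met the rule in either library (0 of 424 and 0 of 382, upper limits of 0.866% and 0.961%), but these cells were shallow, with medians of 3103.5 and 3202.5 UMIs, and 3 of E10-P56 met a rule of 2 genes. The names were rebuilt from the counts and can place cells differently from the study, which set cells with Birc5 aside.

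Within the fibroblast-like cells of E10-P56 the cycling cells were gathered in 1 cluster. Cluster 7 held 65 of them among its 351 cells, or 18.5% (14.6 to 23.0). Its leading genes were Tnc, Slc16a3, Lrrc15, Crabp1 and Slpi, and the markers that named it were Lum, Mfap5, Serpinf1 and Clec3b. Tnc codes for tenascin-C, a matrix protein of wounded and growing connective tissue, and Lrrc15 for a surface protein of activated fibroblasts. After thinning to 1500 UMIs, 11 of its 351 cells (3.13%, 1.57 to 5.54) still met the rule. Cluster 2, led by Car3, Apoc1, Hp and Fgf10, had 15 cycling cells of 810, cluster 3, led by the interferon genes Isg15 and Ifit1 and by Plac8, 11 of 592, and cluster 0, led by Hmcn2 and Aldh1a2, 5 of 1175. The large cluster 1, led by Smpd3, Pi16 and Dact2, which mark adventitial fibroblasts, had 0 of 1107.

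The 10 SMCP-like cycling cells were 3.73% (1.80 to 6.75) of the 268 cells of cluster 8, which was named by Ifitm1, Nr4a1, Thy1, Mcam and Rgs4. After thinning to 1500 UMIs they were 7 of 268 (2.61%, 1.06 to 5.31), an interval that overlaps that of cluster 7. This name depended on the limits. With a minimum of 3000 UMIs or mitochondrial limits of 5% or 20%, none of the cycling cells was SMCP-like. Those in clusters without a name were then 11 of 110, 28 of 91 and 12 of 114, against 1 of 111 before. At the limit of 5%, VSMC-like cells were 8 of 91 and fibroblast-like ones 55 of 91, against 2 and 97 of 111 before. Other names than SMCP-like thus changed too, and which cell took which name was not examined. Summed over these 10 cells, the pericyte markers stood at 7736 CPM (9123 in the non-cycling SMCP-like cells), the VSMC markers at 1329 CPM (4780) and the SMCP markers at 1286 CPM (2029). The fibroblast markers stood at 1655 CPM (3391), and none of the 10 had both Dpt and Pdgfra. The cycling fibroblast-like cells held 289 CPM of the pericyte markers.

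In the adult pulse the cycling fibroblast-like cells were spread over clusters 0 to 4, with 2 of 2713, 2 of 1464, 2 of 1247, 4 of 850 and 1 of 602 cells. The tenocyte-like cluster held 10 of 564 cells (1.77%, 0.853 to 3.24), or 5 (0.887%) after thinning to 1500 UMIs. It was led by Kera, Fmod, Chodl, Ptx4, Tnmd, Col22a1 and Scx, of which Scx and Tnmd are the transcription factor and membrane protein that define tendon cells and Kera and Fmod code for proteoglycans that set collagen fibril size. Fibroblast-like cells as a whole cycled at 0.153% (0.0764 to 0.274). E10-P56 had 1 cycling tenocyte-like cell of 291 (0.344%, 0.00870 to 1.90), an interval that overlaps that of the adult pulse.

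**Figure D2:**
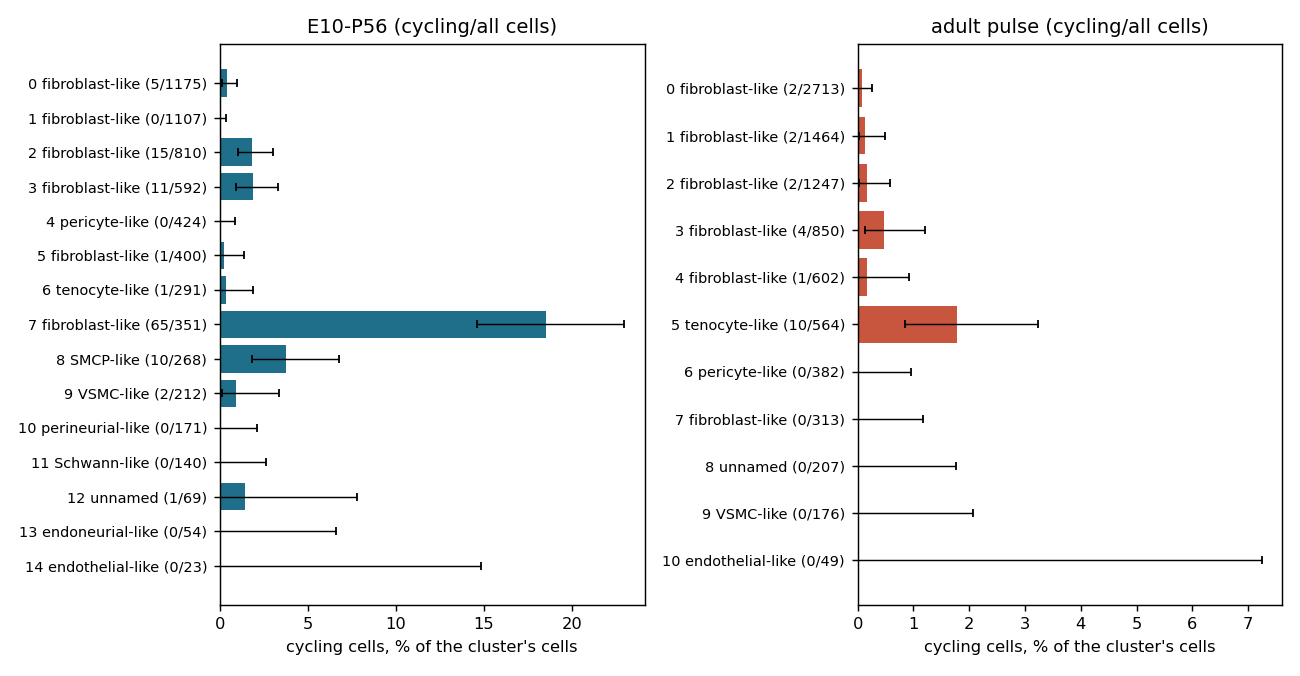
Cycling cells as a percentage of the cells of each cluster, with 95% Clopper-Pearson intervals, for E10-P56 and the adult pulse, whose x axes differ. Cluster 7 of E10-P56 reaches 18.5% and the tenocyte-like cluster of the adult pulse 1.77%.

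The named types were checked by their summed markers, which include genes that named the clusters. Cycling fibroblast-like cells held 8445 CPM of the fibroblast markers in E10-P56, against 38902 CPM in the non-cycling ones, and 25644 against 56682 CPM in the adult pulse. Cycling tenocyte-like cells of the adult pulse held 7988 CPM of the tenocyte markers, against 17179 CPM in the non-cycling ones, and 541 CPM were found in the cycling fibroblast-like cells. In all 3 of these comparisons the markers of the own type were lower in the cycling cells. Of the 97 cycling fibroblast-like cells of E10-P56, 65 lay in cluster 7, named by only Lum, Mfap5, Serpinf1 and Clec3b. The part of this makeup in the lower level was not tested. Both Dpt and Pdgfra were seen in 88 of 111 cycling cells (79.3%) in E10-P56 and in 12 of 21 (57.1%) in the adult pulse. Of these, 86 were fibroblast-like in E10-P56, and 10 were fibroblast-like and 2 tenocyte-like in the adult pulse.

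Most cycling cells carried more G2/M than S mRNA. By summed UMIs of 44 S genes and 46 G2/M genes, rule genes left out, 78 of 111 cells (70.3%, 60.9 to 78.6) were weighted to G2/M in E10-P56 and 19 of 21 (90.5%, 69.6 to 98.8) in the adult pulse. With each cell thinned to 1500 UMIs the shares were 71.6% and 95.2%. The S share of the list UMIs in a cell had a median of 32.3% (range 4.08 to 76.6) in E10-P56 and of 9.63% (4.82 to 64.6) after the adult pulse. In E10-P56 the cells formed a continuous range, with 22 of 111 between 40% and 60%, while in the adult pulse no cell lay there. Non-cycling cells had pooled S shares of 40.9% and 39.1%, against 35.3% and 17.99% in the cycling cells, but a median of only 9 and 8 list UMIs per cell against 182 and 253. The 2 lists hold different genes, so the equal point between them does not mark a boundary of phases, and the rule genes are mostly expressed late in the cycle, so these shares describe cells chosen by the rule and not all dividing cells. The part of free RNA in these shares was not tested.

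Weighting to G2/M in E10-P56 held for 44 of 65 cells of cluster 7, with a median S share of 33.3%, for 10 of 15 of cluster 2 (33.1%), for 7 of 11 of cluster 3 (23.5%) and for 4 of 5 of cluster 0 (40%). All 10 SMCP-like cells were weighted to G2/M, with a median S share of 27.6%. It held for 8 of the 10 tenocyte-like cells of the adult pulse, with a median S share of 9.93%, and for all 11 fibroblast-like cells, so both of the S-weighted cells of that library were tenocyte-like.

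**Figure D3:**
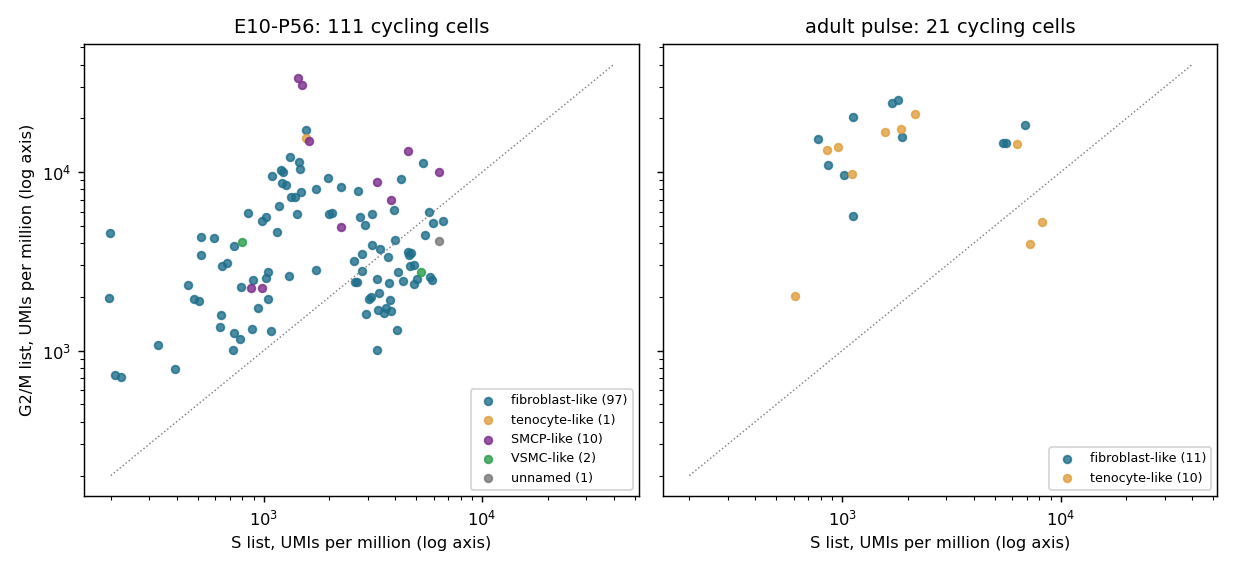
Each point is 1 cycling cell (111 in E10-P56, 21 in the adult pulse), with its summed CPM of the S list against that of the G2/M list on log axes, coloured by type. The dotted line marks equal levels, and most points lie on the G2/M side.

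Genes were compared between cycling cells and non-cycling Dpt+ Pdgfra+ cells with none of the 6 mRNAs, with 5 comparison cells nearest in depth for each cycling cell. For Dpt+ Pdgfra+ cycling cells, 88 cells with a median of 38106 UMIs stood against 440 with 25319 UMIs in E10-P56, since few non-cycling cells were as deep. For the adult pulse, 12 cells with 15354 UMIs stood against 60 with 15349.5. The comparison cells were matched on depth and not on cluster, while 58 of the 88 cells lay in cluster 7 and 2 of the 12 were tenocyte-like. Among 10578 measured genes in E10-P56, 6.84% were at least 2-fold higher and 10.2% at least 2-fold lower in cycling cells. Among 4253 genes in the adult pulse these were 8.93% and 11.3%. The median log2 ratio over all genes was -0.04 and 0.05. A gene entered with at least 50 UMIs over both sets of cells, so a gene seen only in cycling cells passed by being high there. In the same way a gene seen nearly only in comparison cells passed by being high in those. The comparison cells held 11562279 UMIs against 3622693 in E10-P56 and 1185946 against 246102 in the adult pulse. The counts of higher and of lower list members therefore describe the measured genes and support nothing by themselves. All ratios below are of this comparison unless stated otherwise. A gene with no UMI on one side was set at 3 UMIs there, and its ratio and the list medians then rest on this setting.

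Genes of DNA replication were higher in the cycling cells of both libraries. On the S list 38 of 43 measured genes were at least 2-fold higher in E10-P56 and 8 of 10 in the adult pulse. Of all measured genes these were 6.84% and 8.93%. The S list had median log2 ratios of 2.90 and 2.71, with none of its genes lower. All 16 measured genes of origin licensing and the helicase were higher in E10-P56. Mcm7, a helicase subunit, stood at 81.7 CPM against 12.3 in E10-P56 and at 146 against 20.2 CPM in the adult pulse. Tyms, which makes thymidylate for DNA synthesis, stood at 184 against 14.4 CPM (ratio 12.8, 10.8 to 15.2) and at 195 against 10.1 CPM (19.3, 10.1 to 39.9). Rrm1, a subunit of ribonucleotide reductase, was 7.44-fold and 12.3-fold higher, and Dut, which removes dUTP, 4.45-fold and 7.77-fold. Pcna, the sliding clamp of the replication fork, was 3.42-fold higher in E10-P56 and 6.13-fold in the adult pulse, where only 4 of the 12 cells had a UMI of it. Nucleotide synthesis as a list was less uniform, with 8 of 14 genes higher in E10-P56 and 5 of 9 higher with 1 lower in the adult pulse.

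Chromatin and histone genes followed. Replication-dependent histones were higher for 10 of 11 measured genes in E10-P56 and 5 of 6 in the adult pulse. Of all measured genes 6.84% and 8.93% were higher. Hist1h1b, a linker histone made in S phase, had 562 UMIs in the 88 cycling cells against 5 in the 440 comparison cells of E10-P56. After the adult pulse it had 119 UMIs in 6 of the 12 cycling cells against 0, with 43% of them from 1 cell. Such mRNAs lack a long poly(A) tail and are caught only in part by 3' chemistry. In the list of chromatin assembly, 16 of 19 and 10 of 12 genes were higher. Hmgb2, a chromatin protein gene, stood at 527 against 31.3 CPM and at 1654 against 51.4 CPM, and the histone variant gene H2afz at 1133 against 171 and at 2735 against 227 CPM. Genes of recombination and replication stress were higher for 15 of 16 and 3 of 3.

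Mitotic genes, the kind to which the rule genes belong, had the largest ratios. The G2/M list had median log2 ratios of 6.13 and 6.96. Of its measured genes 42 of 44 and 30 of 30 were at least 2-fold higher, against 6.84% and 8.93% of all genes. Among mitotic kinases and spindle genes this was 34 of 34 and 15 of 15, among kinetochore genes 19 of 20 and 5 of 5, and among cytokinesis genes 10 of 10 and 4 of 4. Tpx2, which activates Aurora A on the spindle, had 437 UMIs against 7 in E10-P56 and 102 against 1 in the adult pulse. Hmmr, a spindle and hyaluronan-binding protein gene, had 436 against 1 and 129 against 1. Cenpa, the centromeric histone gene, stood at 165 against 2.08 CPM in E10-P56 and at 549 against 0.843 CPM (1 UMI) in the adult pulse. Condensins and other packing genes were higher for 11 of 14 and 5 of 7, and genes of the APC/C and mitotic exit for 8 of 11 and 6 of 9. The condensin genes Smc2 and Smc4 were 12.2-fold and 7.53-fold higher in E10-P56 and 50.8-fold and 19.7-fold in the adult pulse. Cdc20, an activator of the APC/C, had 432 UMIs against 8 and 114 against 1, and Prc1, which bundles the midzone at cytokinesis, 659 against 23 and 170 against 1. The comparison cells were chosen for having none of the 6 rule mRNAs, and the part of that choice in these ratios was not tested.

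Of the measured cyclins and CDKs 14 of 18 were higher in E10-P56 and none lower. After the adult pulse 5 of 9 were higher and 1, Ccnd2, lower. Among all measured genes of this comparison 6.84% and 8.93% were higher, and 10.2% and 11.3% lower. Ccna2, the cyclin of S and G2, had 434 UMIs against 3 in E10-P56 and 73 against 1 in the adult pulse, and Ccnb1, a cyclin of mitosis, 307 against 1 and 54 against 1. The E cyclins, which start S phase, had 75 UMIs against 16 (Ccne1) and 198 against 14 (Ccne2) in E10-P56. The D cyclins carry growth signals in G1, and like the E cyclins they were named after their values were seen. Ccnd1 stood at 37.8 against 48.5 CPM (0.78, 0.642 to 0.941) in E10-P56 and at 40.6 against 53.1 CPM (0.76, 0.350 to 1.501) in the adult pulse. Ccnd2 stood at 110 against 153 CPM (0.72, 0.645 to 0.804) and at 73.1 against 212 CPM (0.35, 0.202 to 0.558). Ccnd3 stood at 1.21-fold (1.05 to 1.39) and 1.19-fold (0.654 to 2.04). Their partner Cdk4 stood at 1.64-fold (1.496 to 1.79) and 1.66-fold (1.06 to 2.54), within 2-fold. Of the E2F, B-Myb and FoxM1 factors 8 of 12 measured were at least 2-fold higher over all 111 cycling cells of E10-P56 and none lower, against 7.64% higher among all genes of that comparison. Among them, named after their values were seen, E2f1 was 2.58-fold higher (2.09 to 3.18), and Mybl2, the gene of B-Myb, and Foxm1 had 68 UMIs against 5 and 115 against 9. In the adult pulse these 3 genes had too few UMIs to be compared.

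Most CDK inhibitor and Rb family genes were within 2-fold, with 3 of 11 measured genes higher and 1 lower in E10-P56 and 2 of 8 higher in the adult pulse. The values here are for all 111 and 21 cycling cells against 555 and 105 comparison cells, in which 7.64% of 10806 genes in E10-P56 and 10.2% of 5763 in the adult pulse were at least 2-fold higher, and 10.3% and 12.8% lower. Of these cycling cells, 10 of 111 were SMCP-like and 10 of 21 tenocyte-like. The makeup of types and the cycle therefore cannot be told apart in these values. Cdkn2c (p18) stood at 51.8 against 13.8 CPM (3.76, 3.07 to 4.62) in E10-P56 and at 308 against 12.6 CPM (24.5, 15.6 to 40.1) in the adult pulse. Cdkn2d (p19) stood at 62.2 against 19.7 CPM (3.15, 2.64 to 3.77) and at 272 against 24.6 CPM (11.03, 7.70 to 16.01). Both code for inhibitors of CDK4 and CDK6, and both were past 2-fold higher in both libraries. Over Dpt+ Pdgfra+ cycling cells Cdkn2c stood at 3.19-fold and 20.8-fold and Cdkn2d at 2.68-fold and 14.1-fold. Cdkn2a, of the same gene family, was sparse: it had 19 UMIs in 15 of 111 cycling cells against 14 UMIs in 8 of 555 comparison cells in E10-P56, and 14 UMIs in 9 of 21 against 0 in 105 in the adult pulse. At 1500 UMIs per cell none of these E10-P56 cells and 1 of the 21 adult pulse cells showed it. Cdkn2b was at 1.52 (0.972 to 2.32) in E10-P56.

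Over the same sets of all cycling cells, with the same limit, the genes of the Cdkn1 family were within 2-fold or lower. Cdkn1a (p21) stood at 67.5 against 92.2 CPM (0.73, 0.639 to 0.836) in E10-P56 and at 185 against 195 CPM (0.95, 0.727 to 1.23) in the adult pulse. Cdkn1b (p27) stood at 0.83 (0.714 to 0.965) and 1.11 (0.776 to 1.56). Cdkn1c (p57) was past 2-fold lower in E10-P56, at 15.4 against 34.2 CPM (0.45, 0.339 to 0.590), and stood at 44.4 against 56.4 CPM (0.79, 0.442 to 1.32) in the adult pulse. Of the Rb family in E10-P56, Rbl1, an E2F target, was 3.05-fold higher (2.23 to 4.16), Rbl2 stood at 0.54 (0.383 to 0.751) and Rb1 at 0.91 (0.629 to 1.28). Rbl2 stood at 1.09 (0.512 to 2.13) in the adult pulse.

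**Figure D4:**
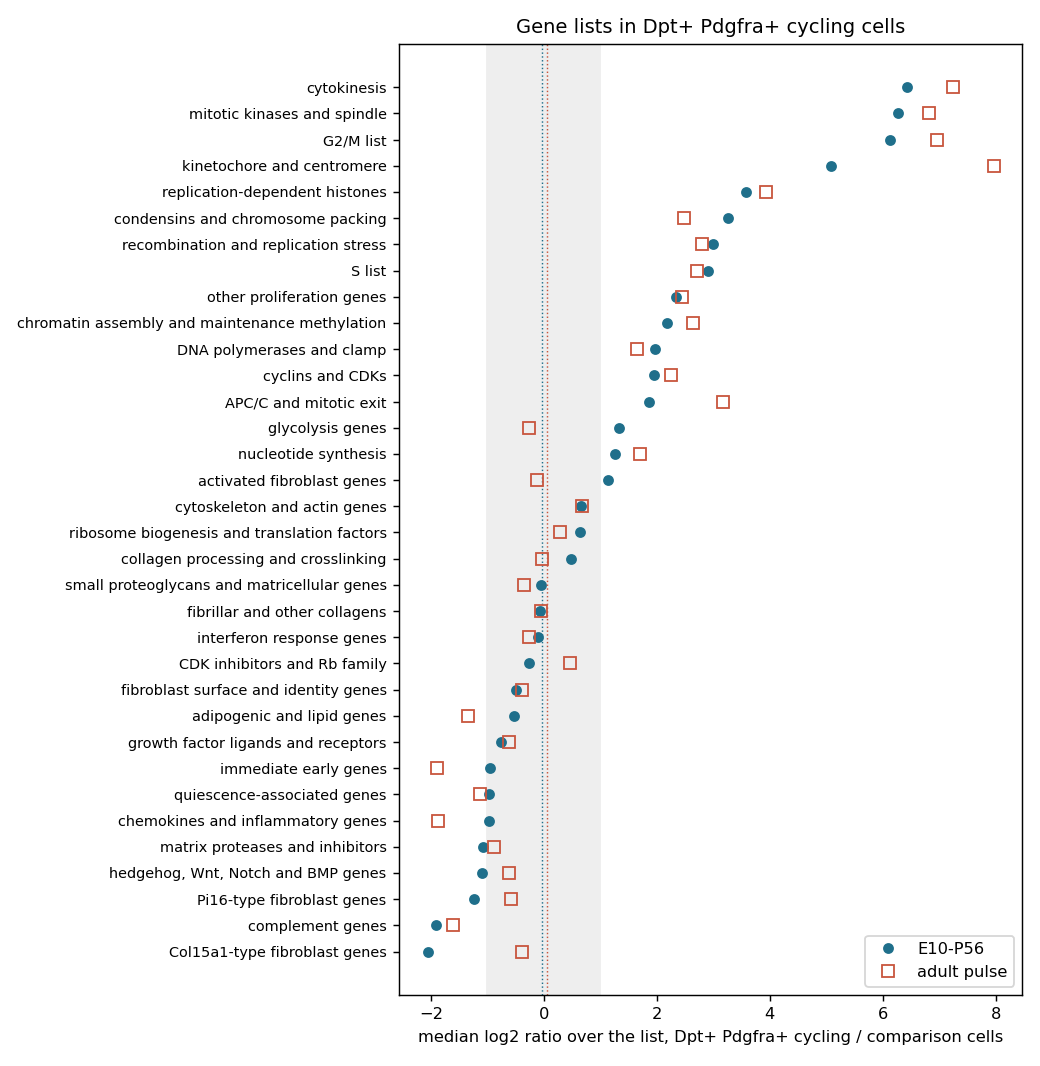
Median log2 ratio of Dpt+ Pdgfra+ cycling cells to their comparison cells for each gene list, filled circles for E10-P56 and open squares for the adult pulse, with the grey band within 2-fold and the dotted line at the median of all genes. Lists of the cell cycle stand to the right, and the complement, chemokine and immediate early lists to the left in both libraries.

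Outside the cell cycle, complement genes were the list most uniformly lower. Of its measured members 8 of 10 in E10-P56 and 7 of 7 in the adult pulse were at least 2-fold lower, with medians of -1.91 and -1.60, against 10.2% and 11.3% of all genes. C3, the central complement protein (chr17:57203970-57228136, minus strand), stood at 320 against 1802 CPM (0.18, 0.167 to 0.188) in E10-P56 and at 175 against 1369 CPM (0.13, 0.0920 to 0.173) in the adult pulse. C7 of the membrane attack complex had 13 UMIs against 715 and 1 against 59, with a ratio of 0.082 (0.00203 to 0.473) in the latter. C4b stood at 192 against 727 CPM and at 69.1 against 395 CPM, where 88% of the adult UMIs came from 1 cell. C1ra was 0.33 of the comparison level in each library. With 1 nearest comparison cell for each cycling cell, 8 of 10 and 5 of 5 were still lower.

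Chemokines and inflammatory genes were lower for 7 of 14 and 8 of 9, against 10.2% and 11.3% of all genes, with medians of -0.98 and -1.88. Cxcl13, which draws B cells, stood at 112 against 814 CPM (0.14, 0.124 to 0.152) in E10-P56. In the adult pulse it had 0 UMIs against 353, a ratio of 0.041 when set at 3 UMIs. Ccl11, the eosinophil chemokine eotaxin, stood at 102 against 393 CPM and at 252 against 906 CPM. Immediate early genes were lower for 10 of 21 and 16 of 19. Egr1 stood at 287 against 815 CPM (0.35, 0.330 to 0.376) and at 341 against 1408 CPM (0.24, 0.192 to 0.302), and Zfp36, which speeds the decay of inflammatory mRNAs, at 133 against 421 and at 28.4 against 340 CPM, though its adult ratio came within 2-fold when cells with 2 rule genes were included (log2 -0.85). Atf3, a stress-response factor gene, stood at 25.1 against 136 CPM and at 28.4 against 280 CPM, and its adult direction turned when cells with 2 rule genes were included (log2 0.26). With 1 nearest comparison cell the count of immediate early genes in E10-P56 was 4 of 21.

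Most fibroblast surface and identity genes were within 2-fold: 4 of 16 measured were lower in E10-P56 and 2 of 14 in the adult pulse, against 10.2% and 11.3% of all genes, and none was 2-fold higher. Among Pi16-type genes, which mark adventitial fibroblasts, 9 of 15 and 5 of 14 were lower, and among Col15a1-type genes, which mark parenchymal fibroblasts, 9 of 14 and 3 of 14. Pi16 stood at 273 against 928 CPM (0.29, 0.276 to 0.314) in E10-P56 and at 423 against 1070 CPM (0.39, 0.320 to 0.483) in the adult pulse, where it was within 2-fold with 1 nearest comparison cell (log2 -0.44). Smpd3, a sphingomyelinase gene, had 19 UMIs against 857 and 3 against 242, with a ratio of 0.060 (0.0122 to 0.177) in the latter. Apoe, of lipid transport, stood at 137 against 507 CPM and at 52.8 against 261 CPM, and Podn, a small proteoglycan gene, at 18.5 against 87.9 and at 56.9 against 116 CPM. Of the 10 fibroblast markers 6 and 4 were lower. Dpt and Pdgfra themselves chose these cells and are not counted here as findings.

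The genes of the main collagens were not among those that differed: 1 of 12 was lower in E10-P56 and 1 of 12 higher in the adult pulse. Of all measured genes 10.2% and 11.3% were lower, and 6.84% and 8.93% higher. Col1a1 stood at 18832 against 17539 CPM (1.07) and at 5989 against 8532 CPM (0.70), and Col3a1 at 0.67 and 0.95. Matrix proteases and their inhibitors were lower for 7 of 13 and 4 of 11. Mmp3 (stromelysin) stood at 241 against 868 CPM and at 28.4 against 110 CPM, with 86% of its adult UMIs in 1 cell, and Timp3 at 59.9 against 205 and at 134 against 510 CPM. Of the small proteoglycans and matricellular genes 5 of 14 were lower and 2 higher in E10-P56, and 4 of 11 lower and 1 higher after the adult pulse. Ogn (osteoglycin) stood at 199 against 848 CPM (0.23) and at 252 against 1189 CPM (0.21). Thbs1 (thrombospondin 1) went the other way, at 196 against 61.7 CPM (3.17, 2.86 to 3.53) and at 211 against 58.2 CPM, though 79% of its adult UMIs came from 1 cell.

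Genes tied to quiescence were lower for 7 of 15 and 6 of 11. Of all measured genes 10.2% and 11.3% were lower, and 6.84% and 8.93% higher. Gas6, a growth-arrest gene that codes for the ligand of Axl-family receptor kinases (chr8:13465374-13494490, minus strand), stood at 29.8 against 200 CPM (0.15, 0.122 to 0.181) in E10-P56 and at 32.5 against 201 CPM (0.16, 0.0691 to 0.324) in the adult pulse. A UMI of it was found in 24 of 88 and 5 of 12 cycling cells against 290 of 440 and 43 of 60 comparison cells. Txnip, which limits glucose uptake, stood at 0.34 and 0.39. Among hedgehog, Wnt, Notch and BMP genes 8 of 16 were lower and 3 higher in E10-P56, and 5 of 10 lower in the adult pulse. The Wnt antagonist gene Dkk2 stood at 26.5 against 162 CPM (0.16, 0.132 to 0.201) and at 16.3 against 180 CPM (0.091, 0.0244 to 0.235), and Sfrp4, another antagonist, at 0.23 and 0.19. Of growth factor ligands and receptors 9 of 24 and 6 of 18 were lower. Fst (follistatin), which binds activin, stood at 0.43 and 0.17, and Egfr at 0.27 and 0.43. The adult values of both were within 2-fold when cells with 2 rule genes were included (log2 -0.77 and -0.86). Tgfb1 was 3.01-fold and 2.26-fold higher, but within 2-fold in E10-P56 with 1 nearest comparison cell (log2 0.77) and in the adult pulse without the cells of highest doublet score (log2 0.95).

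Activated fibroblast genes differed between the libraries. In E10-P56, 9 of 16 measured genes were higher and 2 lower, with a median of 1.13. In the adult pulse 1 of 10 was higher and 2 lower, with a median of -0.12. Of all measured genes 6.84% and 8.93% were higher, and 10.2% and 11.3% lower. Tnc (chr4:63959785-64047015, minus strand) stood at 1033 against 124 CPM (8.33, 7.84 to 8.86) in E10-P56, with a UMI in 55 of 88 cycling cells and 74 of 440 comparison cells, and at 126 against 139 CPM (0.91, 0.596 to 1.33) in the adult pulse. Lrrc15 was 5.15-fold higher in E10-P56 and was too sparse to compare in the adult pulse. Sfrp1 and Fap of the same list were lower in both, at 0.35 and 0.49 in E10-P56 and 0.30 and 0.44 in the adult pulse, though within 2-fold in E10-P56 with 1 nearest comparison cell. With that nearest cell 6 activated genes were higher and 0 lower in E10-P56, with a median of 0.53. Glycolysis genes were higher for 10 of 15 in E10-P56 but for 2 with 1 nearest comparison cell. After the adult pulse 0 of 10 were higher and 3 lower. The difference between the libraries was not tested, and 58 of the 88 E10-P56 cells came from cluster 7, which Tnc and Lrrc15 lead.

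**Figure D5:**
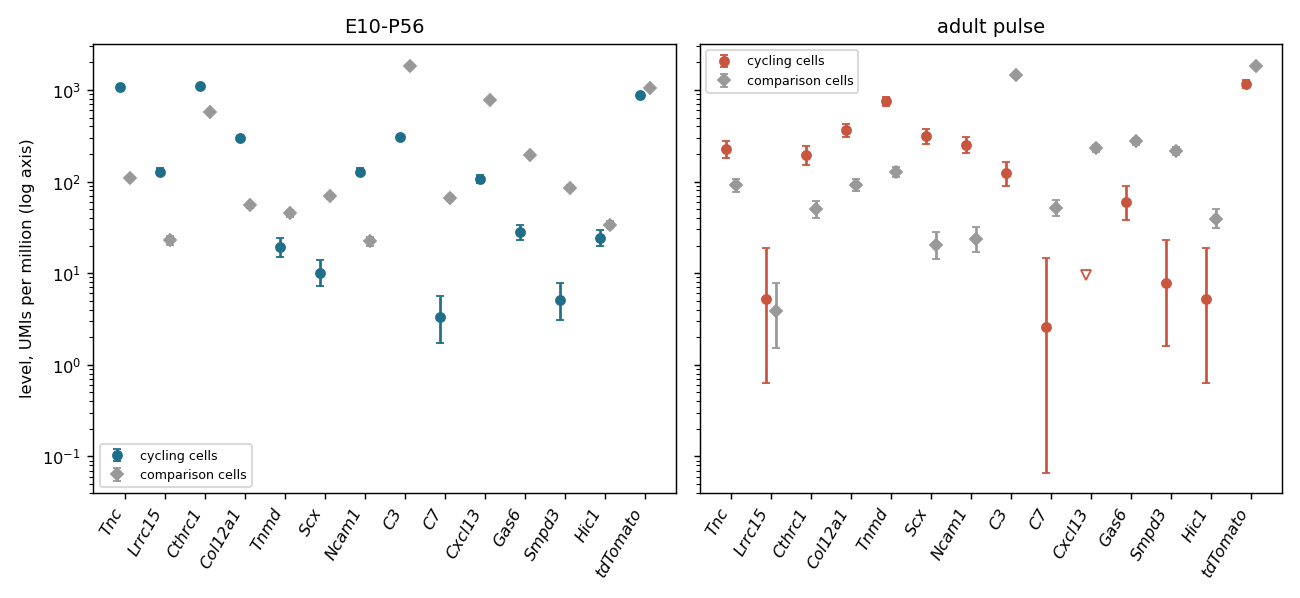
CPM (log axis) of 14 genes in all cycling cells and their comparison cells in both libraries, with Poisson 95% bars and an open triangle for the upper limit where no UMI was seen. C3, C7, Cxcl13 and Gas6 are lower in cycling cells of both libraries, Ncam1 is higher in both, and Tnmd and Scx are higher in the adult pulse and lower in E10-P56.

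Genes of collagen processing were higher for 1 and lower for 1 of 15, and lower for 2 of 14. Of all measured genes 6.84% and 8.93% were higher, and 10.2% and 11.3% lower. Ribosome biogenesis genes were within 2-fold for all 16 and 12 measured members, with medians of 0.64 and 0.28. Interferon response genes were within 2-fold for all 10 in E10-P56 and higher for 1 of 6 in the adult pulse. Cytoskeleton genes were higher for 4 of 16 and 3 of 16 and lower for none, with Tagln2, an actin-binding protein gene, at 2.35-fold and 4.01-fold (within 2-fold in E10-P56 with 1 nearest comparison cell). Adipogenic and lipid genes were lower for 3 of 9 and 3 of 5, with medians of -0.53 and -1.34, of which Apod, a lipocalin gene, stood at 161 against 711 CPM and at 93.5 against 546 CPM.

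Of 4246 genes measured in both libraries, 121 were at least 2-fold higher in both (89 of them on the cycle lists), 197 lower in both and 9 past 2-fold in opposite directions. Ncam1, the neural cell adhesion molecule gene (chr9:49502136-49798925, minus strand), was after Dnajc9 the gene on no cycle list with the highest ratio in both. It stood at 132 against 23.8 CPM (5.54, 4.76 to 6.45) in E10-P56 and at 305 against 21.9 CPM (13.9, 8.79 to 22.6) in the adult pulse. Its mRNA was seen in 59 of 88 and in 12 of 12 cycling cells, against 76 of 440 and 11 of 60 comparison cells, and after thinning to 1500 UMIs in 18.2% and 58.3% against 1.36% and 1.67%. Within E10-P56 it stood at 172 CPM in cycling cells of cluster 7 against 102 CPM in the other cells of that cluster, at 86.8 CPM in the cycling cells of cluster 2, at 12.7 CPM in those of cluster 3 and at 0 UMIs in the SMCP-like ones. Dnajc9, a histone chaperone gene, was 6.13-fold and 12.1-fold higher. H1fx, a linker histone gene, was 3.90-fold and 6.79-fold higher, and Whsc1, a histone methyltransferase gene, 2.998-fold and 10.4-fold. Ptn (pleiotrophin), a heparin-binding growth factor gene, stood at 85.0 against 28.5 CPM and at 329 against 65.8 CPM. Gm1673 was 2.82-fold and 3.44-fold higher. The RNA-processing genes Lsm5, Exosc8 and Alyref were 2.52-fold to 2.67-fold higher in E10-P56 and 3.58-fold to 4.56-fold in the adult pulse.

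Besides C7, Cxcl13, Smpd3, Gas6, Dkk2, C3 and Atf3, the lowest shared genes were Inmt, Slfn5, Sult5a1, Fmod and Il1r2. Inmt, a methyltransferase gene, had 2 UMIs against 111 (0.058, 0.00688 to 0.213) in E10-P56 and 1 against 188 (0.026, 0.000646 to 0.145) in the adult pulse. Slfn5, an interferon-regulated gene, stood at 20.4 against 170 CPM and at 8.13 CPM (2 UMIs) against 172 CPM. Il1r2, the decoy receptor for interleukin 1, was at 0.18 and 0.050 and Sult5a1, a sulfotransferase gene, at 0.16 and 0.11. All adult Fmod UMIs came from 1 cycling cell, and its adult log2 ratio was -0.18 without the cells of highest doublet score and -0.39 against the whole pool of comparison cells.

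Tendon genes set the adult pulse apart when all cycling cells were taken, of which 10 of 21 were tenocyte-like there. The tenocyte markers were higher for 4 of 5 there and lower for 5 of 6 in E10-P56. Of all measured genes 10.3% were lower in E10-P56 and 10.2% higher in the adult pulse. Scx stood at 313 against 20.3 CPM (15.5-fold), with a UMI in 9 of 21 cells, and Tnmd at 755 against 127 CPM (5.94-fold). In E10-P56 Scx stood at 10.1 against 69.3 CPM and Tnmd at 19.2 against 45.1 CPM, with 72% of the Tnmd UMIs in 1 cell. The cells they are compared with are Dpt+ Pdgfra+, so the makeup of types and the cycle cannot be told apart in these values.

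The cycling cells were therefore also set against non-cycling cells of their own main cluster, a comparison added after the data had been seen. In cluster 7 of E10-P56, 65 cycling cells with a median of 37627 UMIs stood against 224 with 6731.5 UMIs, and 6.26% of 8312 genes were at least 2-fold higher and 5.88% lower. Complement genes were lower for 9 of 9 measured and immediate early genes for 11 of 21. C3 stood at 116 against 619 CPM (0.19), Gas6 at 5.91 against 184 CPM (0.032) and Apoe at 6.64 against 346 CPM (0.019). Col15a1-type genes were lower for 11 of 13 (median -2.21), Pi16-type genes for 5 of 12 (-0.85), adipogenic genes for 4 of 7 (-1.03) and fibroblast markers for 7 of 10 (-1.80). Quiescence genes were lower for 3 of 13 (median -0.57), chemokines for 4 of 13 (-0.69) and growth factor genes for 5 of 21 (-0.57). Of the activated genes 0 of 16 were higher and 2 lower, with Tnc at 1533 against 786 CPM (1.95) and Lrrc15 at 178 against 136 CPM (1.32). Both are leading genes of this cluster. Ribosome biogenesis genes were higher for 8 of 15, among them Npm1 (nucleophosmin) at 2.17-fold. Of the glycolysis genes 0 of 15 passed 2-fold, with a median of 0.49. Depths differed, and their part was not tested.

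In the tenocyte-like cluster of the adult pulse, 10 cycling cells with a median of 14934.5 UMIs stood against 529 with 6447 UMIs, and 11.3% of 7527 genes were higher and 13.0% lower. Scx stood at 728 against 791 CPM (0.92) and Tnmd at 1747 against 2844 CPM (0.61), so cycling cells held the tendon factor at a level near that of their neighbours. Of the small proteoglycans and matricellular genes 8 of 14 were lower, while collagens were lower for 1 of 12 and collagen processing genes higher for 1 and lower for 1 of 15. Fmod stood at 655 against 3793 CPM (0.17), Comp (cartilage oligomeric matrix protein) at 42.5 against 649 CPM (0.065) and Kera at 546 against 1256 CPM (0.43). Postn (periostin) was 2.30-fold higher. Complement genes were lower for 6 of 7. Of the tenocyte markers 5 of 8 were lower and none higher.

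The lineage reporter was present in nearly every cycling cell. A tdTomato UMI was found in 110 of 111 cells of E10-P56, at 881 against 1053 CPM in the 555 comparison cells (0.84, 0.806 to 0.869), and in 21 of 21 of the adult pulse, at 1170 against 1839 CPM (0.64, 0.575 to 0.702). Hic1 itself, a transcriptional repressor gene on chr11:75164565-75169519 (minus strand), was found in 55 of 111 cycling and 277 of 555 comparison cells of E10-P56, at 24.5 against 33.9 CPM (0.72, 0.575 to 0.903). In the adult pulse it had 2 UMIs in 2 of 21 cycling cells against 72 UMIs in 43 of 105 comparison cells, with a ratio of 0.13 (0.0157 to 0.496). After thinning to 1500 UMIs, Hic1 was seen in 5.41% against 5.77% and in 0% against 6.67% of cells, and 0 of 21 allows a wide range. The comparison cells were Dpt+ Pdgfra+, while 10 of the 21 adult cycling cells were tenocyte-like and 10 of the 111 in E10-P56 SMCP-like. The makeup of types and the cycle therefore cannot be told apart in the tdTomato and Hic1 values. CreERT2 was seen in 5 of 111 and 1 of 21 cycling cells, too few to compare. All cells were sorted for tdTomato, so no cell type here should lack it and its background cannot be given.

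Markers of other cell types were summed over the same cells. Pericyte markers were higher in the cycling cells of E10-P56, at 621 against 226 CPM with 8 of 8 genes present, and lower in the adult pulse, at 31.3 against 144 CPM. The 10 SMCP-like cells of E10-P56 held 7736 CPM of them, and Rgs5, a pericyte gene, had a UMI in 33 of 111 cells (271 against 49.5 CPM). Immune markers stood at 89.2 against 29.96 CPM in E10-P56 with 5 of 8 genes present, nearly all from Csf1r (343 UMIs in 54 cells, 86.7 against 28.6 CPM), while Ptprc, which defines leukocytes, was at 0 UMIs in cycling and comparison cells of both libraries. The adult pulse had 1 of 8 immune genes, at 5.22 against 4.38 CPM in sum. Endothelial markers stood at 21.5 against 6.80 CPM and at 52.2 against 13.1 CPM, perineurial ones at 89.7 against 60.9 and 91.4 against 65.7 CPM, and Schwann cell ones at 8.84 against 34.4 and 7.83 against 14.2 CPM. Satellite cell markers stood at 11.9 against 12.2 CPM in E10-P56 and at 248 against 66.2 CPM in the adult pulse, where Chodl of that list also leads the tenocyte-like cluster. Their part in the values above was not tested.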

How the data were processed

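Single-cell RNA-seq of sorted tdTomato+ muscle cells was available as 1 library per group. UMI counts were deposited by the authors as a matrix of genes by cell barcodes from Cell Ranger (versions 5.0.0 and 3.0.2 for the embryonic and the adult label, per the file headers), aligned to mm10 with tdTomato, CreERT2 and a sequence named SSM2GFP added, for 28001 features. The counts were not normalized. They summed to 67460919 UMIs in 8236 barcodes and 69153173 in 9195, of which 1310 and 465 were under 1500 UMIs and 839 and 163 of the rest over 10% mitochondrial UMIs. Files of other libraries of the study were not analysed here.

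The members and lists were chosen with earlier results of these data known. Cells with 0 of the 6 rule genes were clustered on 2000 variable genes without 337 cycle genes (30 principal components, 20 neighbours, leidenalg 0.10.2 at resolution 0.5, igraph 0.11.9, scikit-learn 1.9.0). Clusters took a name from 15 marker lists when at least 3 markers were in at least 10% of cells with a log2 fold of at least 1, with 5 CPM added. Other cells took the most frequent name of their 20 nearest neighbours. Doublet scores came from Scrublet (scanpy 1.11.5), and no doublets were removed. UMIs were summed over cells and given per 1000000 (CPM). Ratios have exact conditional binomial, levels Poisson and shares Clopper-Pearson 95% intervals (Python 3.11.15, numpy 2.4.6, scipy 1.17.1, pandas 2.3.3, figures with matplotlib 3.10.9). No test was made, since cells are not replicates. "Measured" means at least 50 UMIs over both sets, and "higher" or "lower" in a count means past 2-fold.

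Named genes were, per list, up to 4 members past 2-fold in both libraries in 1 direction by the value nearer 0, the 12 highest and 12 lowest genes on no cycle list, CDK inhibitors, reporter genes and genes defining the types. Ccnd1, Ccnd2, Cdk4, Col1a1, Col3a1, Lrrc15, E2f1, Mybl2, Foxm1, Npm1, Comp, Postn, Csf1r, Rgs5 and Tnc in Dpt+ Pdgfra+ cells were chosen after their values were seen. Gene positions are from GENCODE M21. Alternatives covered the limits, the number of rule genes, doublets, thinning, neighbours, resolution, the comparison cells, the scaling and the UMI minimum. The ratio and placement steps were tested on simulated data. Promoter windows matched 32 of 44 S genes and 5 of 10 complement genes, under 80%, so motif shares of these lists were void and are not given. Of the immediate early genes 17 of 21 had a window. A CHR match stood in 2 of these (11.8%), a CCAAT match in 6 (35.3%) and an E2F match in 5 (29.4%). CHR and CCAAT matches stood together in 1 (5.88%). The windows of all genes gave 19.6%, 37.5%, 6.45% and 7.00%. Results on 1 gene are not reported here.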

Additional observations from a re-analysis of the deposited data

Results flagged for a closer look

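Listed genes past 2-fold in opposite directions in the 2 libraries were 8 of 426 measured in both over all cycling cells. Over Dpt+ Pdgfra+ ones they were 4 of 368, and 7 and 3 are reported here. Among all genes measured in both, 25 of 5749 and 9 of 4246 went in opposite directions. The difference between the libraries was not tested for any listed gene. Of all cycling cells, 10 of 21 in the adult pulse were tenocyte-like and 10 of 111 in E10-P56 SMCP-like. The makeup of types and the cycle cannot be told apart in these ratios. Over all cycling cells the ratios to comparison cells in E10-P56 and the adult pulse were 0.146 and 15.5 for Scx, 0.426 and 5.94 for Tnmd, 0.0832 and 2.86 for Kera and 0.296 and 2.16 for Fmod, all tendon genes. Bmp5, a bone morphogenetic protein gene, stood at 0.176 and 2.74. In the other direction stood Rgs5 at 5.47 and 0.0645 and Ier3, an immediate early gene, at 2.39 and 0.361. Over Dpt+ Pdgfra+ cycling cells the ratios were 0.137 and 3.13 for Scx, 0.133 and 2.05 for Tnmd and 2.39 and 0.270 for Ier3, and 2 of the 12 adult cells were tenocyte-like.

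SSM2GFP, a sequence added to the genome that no comparison used, had 411 UMIs in the kept cells of E10-P56 and 1001 in those of the adult pulse. It was seen in 4 of 111 and 3 of 21 cycling cells, and in 24 of 555 and 22 of 105 comparison cells.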

How the results depend on the processing

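No paired analysis was possible because there was 1 library per group. Of 173 summary values under alternatives, 137 stayed within 1.5 times the count or the interval of the share, and 36 did not. E10-P56 had 28 cycling cells with every cell thinned to 1500 UMIs and 43 at 3000, and the adult pulse 35 when 2 rule genes sufficed. With the rule genes in the phase lists, 79.3% of E10-P56 cells were weighted to G2/M. None of the E10-P56 cycling cells (0%) was SMCP-like with 3000 UMIs or at mitochondrial limits of 5% or 20%. Those in clusters without a name were then 11 of 110, 28 of 91 and 12 of 114, against 1 of 111 before. At 5% fibroblast-like cells were 60.4%, tenocyte-like 0% and VSMC-like 8 of 91, against 2 of 111 VSMC-like before. For all cycling cells of E10-P56, 2220 genes were lower against the whole pool of comparison cells, 409 higher and 643 lower with at least 200 UMIs, 1283 higher with at least 10, and 548 lower with 1 nearest cell. For Dpt+ Pdgfra+ ones these were 2390 lower, 348 and 587, 1119 and 1659 (higher and lower), and 488 lower. For all cycling cells of the adult pulse, higher and lower genes were 2911 and 1462 against the pool, 129 and 243, 1588 and 1521, and 361 and 233. For Dpt+ Pdgfra+ ones they were 3441 and 1329, 72 and 124, 1339 and 1357, and 211 and 119. The pool is shallower than the cycling cells, and the UMI minimum changes the number of genes compared. Otherwise the cause was not tested.

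Of 4491 values of named genes under alternatives, 4423 stayed past 2-fold in the same direction. Those under another UMI minimum are among them and could not move, since it only chooses which genes are compared. The share that stayed is therefore no measure of stability. The direction of Atf3 in the adult pulse turned with 2 rule genes, to log2 ratios of 0.10 over all and 0.26 over Dpt+ Pdgfra+ cycling cells. With 1 nearest comparison cell 27 named values came within 2-fold, and with 2 rule genes 19. Over all adult cycling cells Tnc then stood at a log2 of 0.30 and Gas6 at -0.95 with 1 nearest cell. Depth limits both libraries: at 1500 UMIs per cell 28 of 111 cells met the rule in E10-P56 and 14 of 21 in the adult pulse, and the E10-P56 comparison cells were shallower than the cycling ones.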
